A study of Mus musculus with 4 samples.

Results

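The tumour necrosis factor (TNF) superfamily, comprising its ligands, their receptors and the TRAF adaptor proteins that bind the receptors inside the cell, was described in spleens of mice with and without the transcription factor Nrf2. Members were all probe sets, other than control probe sets, with a single gene symbol that is Tnf or begins with Tnfsf, Tnfrsf or Traf and a digit, together with those of Lta, Ltb, Ltbr, Fas, Fasl, Cd40, Cd40lg, Cd27 and Cd70. This gave 40 of the 12488 probe sets on the array, for 32 genes, namely 11 ligand genes, 15 receptor genes, 5 TRAF genes and Traf3ip2, which the name rule brought in and which encodes a TRAF-binding adaptor of the interleukin-17 receptor. Of the family genes listed by role, 11 of 17 ligands, 15 of 24 receptors and 5 of 7 TRAF genes had a probe set under the rule. The B cell survival ligands Tnfsf13 and Tnfsf13b, their receptors Tnfrsf13b and Tnfrsf13c, and Traf3 were among those not measured here.

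Total RNA was measured on 4 arrays from spleens of female mice aged 5 months, an age the labels place before autoimmune disease became severe. There were 2 samples of the knockout group (nrf2 -/-) and 2 of the wild-type group (nrf2 +/+). Both groups were littermates from interbred heterozygotes, whose nrf2 +/+ parents were C57B6/SJL and whose nrf2 -/- parents were C57B6/129SVJ, so the animals were of mixed strain background. The labels do not say whether a sample is 1 mouse or a pool, nor which part of the gene was deleted, so p-values reflect the spread of these samples alone, and that spread may be technical.

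TNF superfamily ligands are mostly trimeric proteins on or shed from immune cells, and receptor engagement leads through TRAF proteins to NF-kappaB and MAP kinases or, for receptors with a death domain such as Fas and Tnfrsf1a, to caspases. In the spleen, lymphotoxin from B cells signals to stroma through the lymphotoxin beta receptor and maintains follicles, CD40 on B cells receives help from T cells, and several other members costimulate activated T cells. Nrf2 binds the antioxidant response element (ARE) of genes for detoxification and antioxidant defence. The comparison asks whether spleen expression of this family differs when Nrf2 is absent.

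Promoters of member genes were searched for the core of this element, because the knockout removes the factor that binds it. The motif TGACNNNGC was searched on both strands of the 300-base window from 250 bases before to 50 bases after each start site, in sequences from RefSeq (GRCm38.p6). Of the 32 genes, 25 matched the promoter table, with 27 promoters, and 5 promoters (18.5%) held the motif against 12.4% of all 32851 promoters. These 5 belonged to Lta, Traf2, Traf5, Tnfrsf8 and Tnfrsf9, and in Tnfrsf8 the motif spanned the start site. The NF-kappaB consensus, searched because this factor lies downstream of the receptors, was held by 3 member promoters (11.1%), those of Ltb, Tnfrsf8 and Tnfrsf9, against 4.50% of all. Matches of Tnfrsf8 and Tnfrsf9, whose probe sets were too dim to test, are not printed. The ARE matches of Lta, Traf2 and Traf5 and the NF-kappaB match of Ltb, genes with a tested probe set, are shown. Matched bases are in capitals, and only bases upstream of the start site are given:
Lta, chr17:35205364-35205472, minus strand: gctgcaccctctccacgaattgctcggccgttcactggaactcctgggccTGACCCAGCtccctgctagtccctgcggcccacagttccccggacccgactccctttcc
Traf2, chr2:25546959-25547067, minus strand: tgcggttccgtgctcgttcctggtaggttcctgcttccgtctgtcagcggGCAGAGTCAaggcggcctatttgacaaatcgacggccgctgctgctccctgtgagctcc
Traf5, chr1:192092655-192092763, minus strand: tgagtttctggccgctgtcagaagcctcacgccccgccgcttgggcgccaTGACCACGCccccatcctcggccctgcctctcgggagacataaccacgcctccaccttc
Ltb, chr17:35194370-35194479, plus strand: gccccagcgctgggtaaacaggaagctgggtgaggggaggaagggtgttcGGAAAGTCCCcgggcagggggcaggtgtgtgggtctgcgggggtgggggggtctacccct
The Traf2 and Ltb matches lie on the strand opposite to the gene. A match of letters shows neither binding nor regulation, and the genotype difference of each of these genes is given with its values below.

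Values are deposited probe-set intensities on a linear scale. Differences are knockout minus wild type on the log2 scale, with low values first raised to a floor at the 25th percentile of all arrays, an intensity of 185, which understates the difference of dim genes. The 7453 probe sets whose mean exceeded the 40th percentile were tested, and p-values from limma were adjusted over all of them. The targeted gene, Nfe2l2, had intensities of 202 and 178.6 in knockout replicates 1 and 2, and of 3537 and 6321 in wild-type replicates 1 and 2 (log2 -4.61, SE 0.47, adjusted p = 0.0199). Wild-type replicate 1 stood apart: its correlation with the other arrays over tested probe sets was 0.849 to 0.851, against up to 0.947 among the others, and for 15.4% of tested probe sets it differed by over 2-fold from the nearest of the other 3 arrays and was the highest or lowest, against 0.738% to 1.84% for each other array. Its ratio of 3' to 5' signal for the Gapdh control was 88.3, against 8.07 to 34.8 in the others, while for the beta-actin control it was 14.4, within the 8.86 to 19.3 of the others. Differences of the tested members are therefore given with and without that array. Defining markers of spleen lymphocytes were present: all 10 B cell markers and all 9 T cell markers on the array were bright enough to test.

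No TNF family probe set passed the threshold. Of the 40, 24 were bright enough to test, for 20 genes, and 0 had an adjusted p under 0.05, against 0.0537% of all tested probe sets (4 of 7453). None reached an unadjusted p under 0.05 either, against 1.74% of all. The tested members comprised 5 ligand, 11 receptor and 7 TRAF probe sets and that of Traf3ip2. Among them 8 measured higher and 16 lower in knockout spleen, with a median difference of -0.11 against 0.04 over all tested probe sets, of which 46.3% measured lower. The lowest adjusted p of a member was 0.992. Member standard errors ran from 0.38 to 0.77 on the log2 scale, with a median of 0.46, and no member difference, from -0.94 to 1.26, could be told from the spread between arrays.

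**Figure D1:**
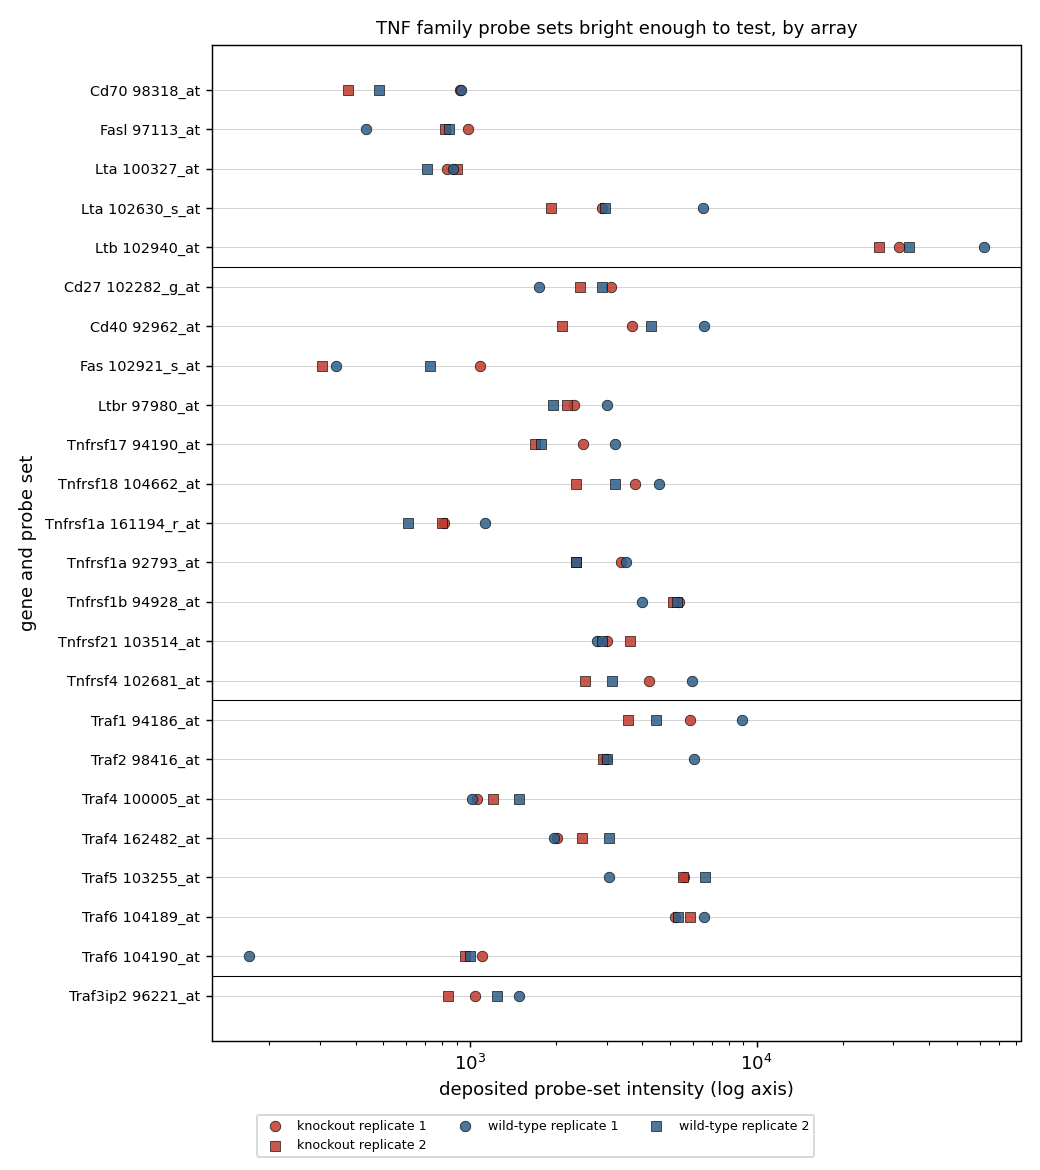
Deposited intensity (log axis) of the 24 TNF family probe sets bright enough to test, 1 row each, grouped as ligands, receptors, TRAF adaptors and Traf3ip2. Red marks are knockout and blue marks wild-type arrays, circles replicate 1 and squares replicate 2, and the blue circle lies at the high or low end of most rows.

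In 6 of the 24 tested members the genotypes did not overlap, 1 higher and 5 lower in knockout spleen. Over all tested probe sets 26.4% did not overlap, 14.3% higher and 12.2% lower, so the share among members is near that of the array as a whole. In 22 of the 24 members the gap between arrays of 1 genotype, in knockout or wild type, was larger than the difference between genotypes, as it was for 87.2% of all tested probe sets. The median gap between the wild-type arrays was 0.79 on the log2 scale for members and 0.64 for all tested probe sets, and between the knockout arrays 0.28 and 0.30. Wild-type replicate 1 was the highest array for 14 members and the lowest for 8. It was the highest for 37.3% and the lowest for 39.2% of all tested probe sets.

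Among the tested ligand probe sets, that of Ltb and 1 of the 2 of Lta had separate groups, lower in knockout spleen. Ltb encodes lymphotoxin beta, which joins lymphotoxin alpha in the membrane form that engages the lymphotoxin beta receptor. Its intensity was 31304 and 26630 in knockout replicates 1 and 2, and 61987 and 33992 in wild-type replicates 1 and 2, the order in which values are given throughout. Both knockout arrays were below both wild-type arrays, while knockout replicate 1 lay close to wild-type replicate 2, and the difference was -0.67 (SE 0.47, 95% confidence interval -1.76 to 0.42, limma adjusted p = 0.992). Without wild-type replicate 1 it was -0.24.

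Lta, which encodes lymphotoxin alpha, had 2 tested probe sets that differed from each other. Probe set 102630_s_at, whose suffix marks probes that may hybridise with more than 1 transcript, gave 2899 and 1918 in knockout arrays and 6487 and 2972 in wild-type arrays, in replicate order. The knockout arrays were the lower pair, with a difference of -0.90 (SE 0.50, 95% confidence interval -2.04 to 0.25, limma adjusted p = 0.992), or -0.33 without wild-type replicate 1. Probe set 100327_at read 835.5 and 903.9 against 872.1 and 711.1, with overlapping genotypes and a difference of 0.14 (SE 0.44). It was 0.29 without wild-type replicate 1, with both knockout arrays then above the remaining wild-type array. The genotype difference of Lta therefore had no settled direction.

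Fasl, the death-inducing ligand of cytotoxic lymphocytes, gave 982.7 and 821.8 in knockout arrays and 435.6 and 844.9 in wild-type arrays. Only wild-type replicate 1 was low, and the difference of 0.57 (SE 0.51) was 0.09 without it. Cd70, the ligand of CD27 on activated lymphocytes, read 924.8 and 375.7 against 935.4 and 484.2. Replicate 1 was the brighter array in both genotypes, and the difference was -0.19 (SE 0.62), or 0.28 without wild-type replicate 1.

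The other 7 ligand probe sets were too dim to test, among them that of Tnf itself, the founding inflammatory cytokine of the family. Tnf gave 465.3 and 175.9 in knockout arrays and 169.9 and 509 in wild-type arrays, so each genotype held 1 array near or below the floor and 1 well above it. Tnfsf11, which encodes the RANK ligand of osteoclast and lymph node formation, read 315.9 and 321.1 against 181.9 and 282.4. Its knockout arrays were the higher pair by a small margin. Tnfsf10, the TRAIL ligand, read 313.2 and 245.5 against 381.6 and 191.8, with overlapping genotypes. Tnfsf9, a costimulatory ligand of antigen-presenting cells, read 450.8 and 103.7 against 127.6 and 399.8, also overlapping.

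Tnfsf8, the CD30 ligand, read 327.3 in knockout replicate 1 and 88.5, 30.2 and 65 in knockout replicate 2 and wild-type replicates 1 and 2, so 1 knockout array alone rose above the floor. Cd40lg, the T cell ligand of CD40, and Tnfsf4, the OX40 ligand, were below the floor on all 4 arrays, at 13.4 to 57.2 and at 12.7 to 59.2. No order can be read from those values.

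**Figure D2:**
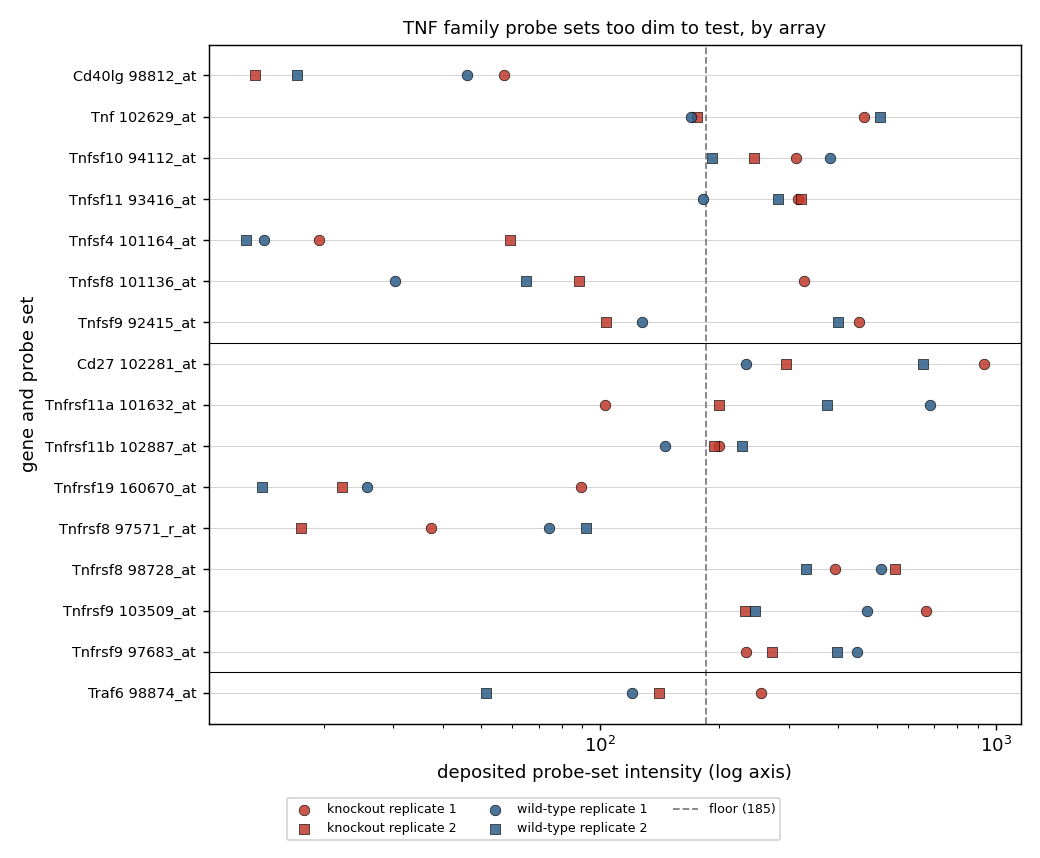
Deposited intensity (log axis) of the 16 TNF family probe sets too dim to test, 1 row each, with the floor of 185 as a dashed line, knockout arrays in red, wild-type arrays in blue, circles for replicate 1 and squares for replicate 2. Above the floor, the knockout marks lie left of the wild-type marks for Tnfrsf9 probe set 97683_at and, with 1 knockout array below the floor, for Tnfrsf11a, and Cd40lg, Tnfsf4, Tnfrsf19 and Tnfrsf8 probe set 97571_r_at lie below the floor on all 4 arrays.

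Among the receptors, Cd40 had the lowest difference and the smallest unadjusted p, 0.0755, of the 24 members tested in the fit of 4 arrays. CD40 on B cells and other antigen-presenting cells drives germinal centre responses. It gave 3677 and 2095 in knockout arrays and 6571 and 4299 in wild-type arrays, with both knockout arrays below both wild-type arrays and knockout replicate 2 the lowest. The difference was -0.94 (SE 0.46, 95% confidence interval -2.0 to 0.12, limma adjusted p = 0.992), a 1.92-fold lower level, and it was -0.63 without wild-type replicate 1. With 1 array left out it ran from -1.34 to -0.53.

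The only tested member with separate groups and a higher level in knockout spleen was Tnfrsf21, which encodes death receptor 6. It gave 3009 and 3632 in knockout arrays and 2773 and 2891 in wild-type arrays. The arrays of the genotypes were close, and the difference was 0.22 (SE 0.38, 95% confidence interval -0.67 to 1.11, limma adjusted p = 0.992), or 0.19 without wild-type replicate 1.

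Ltbr, the stromal and myeloid receptor for lymphotoxin, gave 2311 and 2191 in knockout arrays and 3017 and 1951 in wild-type arrays. The knockout arrays lay between the wild-type arrays, and the difference of -0.11 (SE 0.41) was 0.21 without wild-type replicate 1. Both receptors for TNF also overlapped between genotypes. Tnfrsf1a, the death domain receptor, read 3362 and 2356 against 3497 and 2342 on probe set 92793_at, a difference of -0.02 (SE 0.43, 95% confidence interval -1.01 to 0.96). Its other probe set, 161194_r_at, read 810.3 and 799.9 against 1129 and 609.4, a difference of -0.04 (SE 0.49). Without wild-type replicate 1 the differences of these probe sets were 0.26 and 0.40. Both knockout arrays then lay above the remaining wild-type array. Tnfrsf1b, the lymphocyte receptor for TNF without a death domain, read 5371 and 5103 against 3995 and 5286, with wild-type replicate 1 alone lower, and the difference was 0.19 (SE 0.40), or -0.01 without that array.

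Fas, the death receptor for Fas ligand, varied more between arrays of a genotype than between genotypes. It gave 1087 and 305.5 in knockout arrays and 341.3 and 727 in wild-type arrays, 1 high and 1 low array in each group. The difference was 0.21 (SE 0.72, 95% confidence interval -1.46 to 1.88), or -0.34 without wild-type replicate 1. A control probe set for Fas, left out by the rule, read 1490 and 953.6 against 965.7 and 1549, with the same array of each group brighter. Cd27, a costimulatory receptor of T cells and memory B cells, read 3104 and 2416 against 1749 and 2895 on its tested probe set, a difference of 0.28 (SE 0.43) that was -0.08 without wild-type replicate 1. Its dim probe set read 932.3 and 294.2 against 234 and 656, also overlapping.

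The T cell costimulatory receptors Tnfrsf4 (OX40) and Tnfrsf18 (GITR) and the plasma cell receptor Tnfrsf17 (BCMA) measured lower with overlapping genotypes. Tnfrsf4 gave 4203 and 2523 in knockout arrays and 5950 and 3142 in wild-type arrays, a difference of -0.41 (SE 0.48) that was 0.05 without wild-type replicate 1. Tnfrsf18 read 3758 and 2346 against 4571 and 3210, a difference of -0.37 (SE 0.44) that was -0.11 without that array. In both genes replicate 2 was the lower array in each genotype. For Tnfrsf17 the readings were 2473 and 1683 against 3215 and 1777, and its difference of -0.23 (SE 0.46) was 0.20 without wild-type replicate 1.

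Of the 8 dim receptor probe sets, 2 had knockout arrays below both wild-type arrays once values under the floor were raised to it. In a fit without the filter on dim probe sets, the genotypes were separate for 21.3% of all 12422 probe sets, in either direction. Tnfrsf11a, which encodes RANK, the receptor of osteoclast precursors and dendritic cells, gave 103.1 and 199.6 in knockout arrays and 682.9 and 375 in wild-type arrays. In that fit its difference was -1.40 (SE 0.37, unadjusted p = 0.0360, limma adjusted p = 1). Tnfrsf9, a costimulatory receptor of activated T cells, read 233.6 and 271.3 against 444.8 and 396.1 on probe set 97683_at, a difference of -0.74 in that fit (SE 0.13, unadjusted p = 0.0133, limma adjusted p = 1). Its other probe set read 665 and 232.7 against 473.1 and 246.9 and differed by 0.20, so the Tnfrsf9 probe sets disagreed. In that fit, over all 12422 probe sets, 2.73% had an unadjusted p under 0.05 and 0% passed, so that the targeted gene did not pass either. The members of this fit with an unadjusted p under 0.05 were these 2 of 40.

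Tnfrsf8, the CD30 receptor, read 393.3 and 555.7 against 514.2 and 332.1 on its brighter probe set, and Tnfrsf11b, the secreted decoy receptor osteoprotegerin, 200 and 194.1 against 145.9 and 228.2, both overlapping. Tnfrsf19, at 14 to 89.7, and the other Tnfrsf8 probe set, at 17.5 to 92.2, were below the floor on all 4 arrays.

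**Figure D3:**
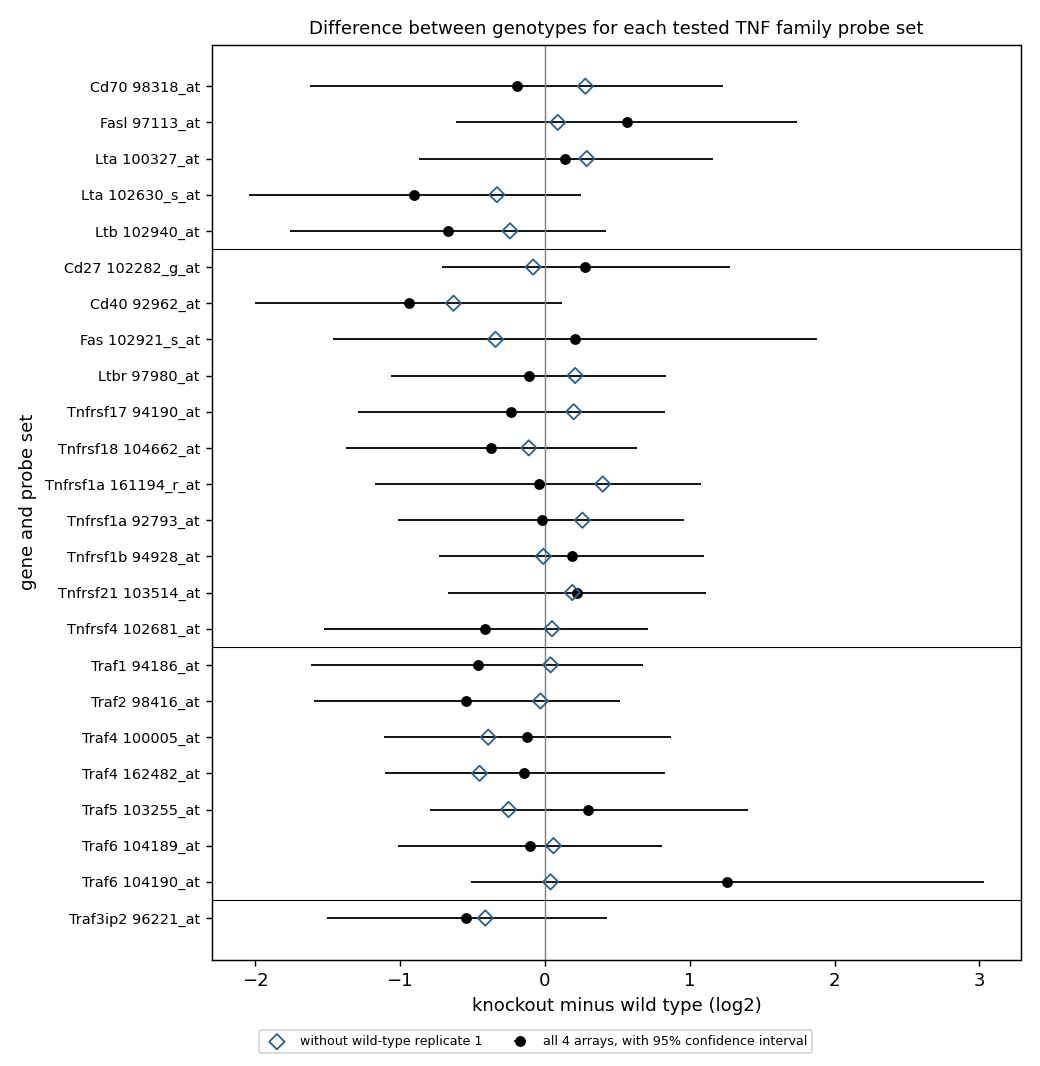
Knockout minus wild-type difference (log2) of each tested TNF family probe set, as black points with 95% confidence intervals from the fit of 4 arrays, and open blue diamonds for the fit without wild-type replicate 1. Every interval includes 0, and the diamonds of Traf2, Ltb and Traf6 probe set 104190_at lie nearer to 0 than the points.

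TRAF adaptors gave 7 tested probe sets, of which 2 measured higher and 5 lower. Traf2, which links TNF receptors and CD40 to NF-kappaB and kinases, gave 2977 and 2906 in knockout arrays and 6045 and 3007 in wild-type arrays. The other 3 arrays lay within a narrow range and wild-type replicate 1 alone was high, so the difference of -0.54 (SE 0.46, 95% confidence interval -1.59 to 0.52, limma adjusted p = 0.992) was -0.03 without it. Traf1, a TRAF without a RING domain that is induced in activated lymphocytes, read 5869 and 3558 against 8924 and 4457. Its genotypes overlapped, and the difference of -0.46 (SE 0.49) was 0.04 without wild-type replicate 1.

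Traf6, an adaptor shared with Toll-like and interleukin-1 receptors, was measured by 3 probe sets. Probe set 104190_at had the highest difference of the tested members, 1.26 (SE 0.77, 95% confidence interval -0.51 to 3.03, limma adjusted p = 0.992). Its intensity was 1102 and 959.2 in the knockout arrays but 170.1 in wild-type replicate 1, with 998.5 in wild-type replicate 2, so it was set by the 1 low array, and the difference was 0.04 without that array. Without wild-type replicate 2, which leaves the low array as the sole wild-type sample, it was 2.47 with an adjusted p of 0.0652. Probe set 104189_at read 5185 and 5882 against 6577 and 5307, with wild-type replicate 1 here the brightest. Its difference was -0.10 (SE 0.39), or 0.06 without that array. The dim probe set 98874_at read 255.3 and 140.7 against 120.6 and 51.3, above the floor in 1 array. Of the 7 member genes with several probe sets, Traf6, Lta and Tnfrsf9 had probe sets of opposite direction.

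Traf5, which serves CD27, CD40 and OX40 in lymphocytes, gave 5575 and 5546 in knockout arrays and 3068 and 6622 in wild-type arrays. The knockout arrays lay between the wild-type arrays, and the difference was 0.30 (SE 0.47), or -0.25 without wild-type replicate 1. Both Traf4 probe sets overlapped between genotypes, with differences of -0.12 and -0.14, and without wild-type replicate 1 both gave lower knockout values, at -0.39 and -0.45. Traf3ip2 read 1045 and 839.6 against 1488 and 1242, with both knockout arrays lower and a difference of -0.54 (SE 0.42, 95% confidence interval -1.5 to 0.43, limma adjusted p = 0.992), or -0.41 without wild-type replicate 1.

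Over the family, the balance toward lower values depended on single arrays. Without wild-type replicate 1, 25 members were tested, 12 higher and 13 lower, with a median of -0.01 against 0.01 over all tested probe sets, and without knockout replicate 2 the count was also 12 higher and 13 lower, with a median of -0.03. In the first of these fits the 1 remaining wild-type array did not lie within the knockout range for 13 members, 5 higher and 8 lower in knockout, against 61% of all tested probe sets (31.9% higher and 29.2% lower). None passed there, and 0 reached an unadjusted p under 0.05, against 3.14% of all tested probe sets. With another array left out, the groups were separate for 12 of 23 members without knockout replicate 1 (55.4% of all tested probe sets), 13 of 25 without knockout replicate 2 (53.6%) and 22 of 25 without wild-type replicate 2 (82.9%). In the last of these fits 6 of 25 members had an unadjusted p under 0.05, against 29.2% of all tested probe sets. Under quantile normalization of the 4 arrays 3 members had separate groups, against 26.3% of all tested probe sets. Cd40, Ltb, Traf3ip2, Lta probe set 102630_s_at and Traf2 measured lower with separate groups in the fit of 4 arrays. Leaving out wild-type replicate 1 cannot undo such a separation, so its persistence there adds no support. Without that array their differences ran from -0.63 for Cd40 to -0.03 for Traf2.

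**Figure D4:**
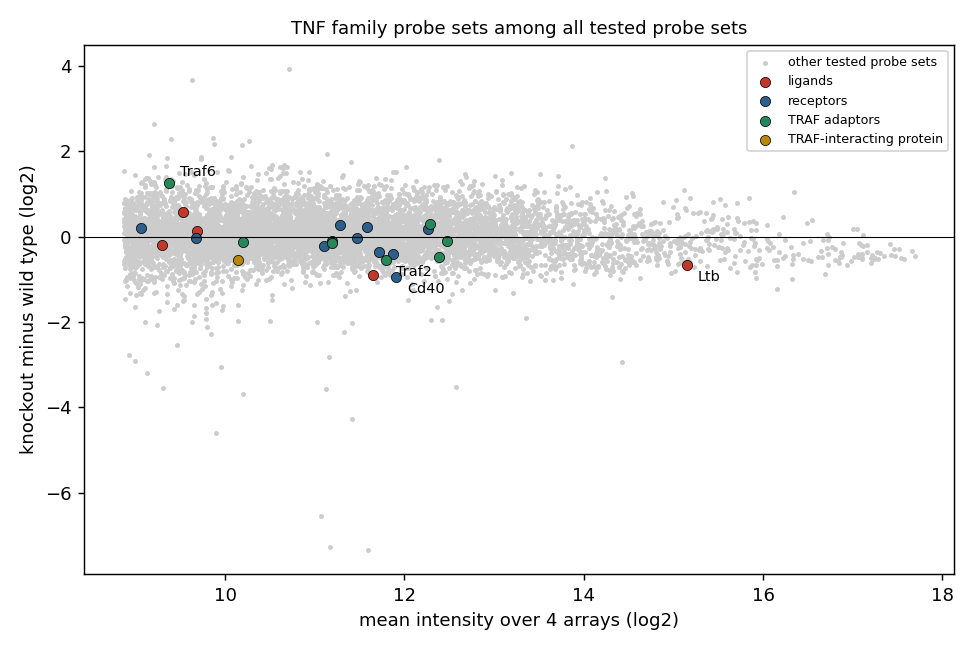
Knockout minus wild-type difference (log2) against mean log2 intensity for all 7453 tested probe sets in grey, with the 24 TNF family probe sets coloured by role. Members lie between -0.94 and 1.26, within the spread of the other probe sets at similar intensity.

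Most B cell, T cell, erythroid and exocrine pancreas markers measured lower in knockout spleen, in the direction of Cd40, Ltb and 1 Lta probe set. None of these members passed the test. Of the 10 tested B cell markers, 8 measured lower and 2 higher in knockout spleen, with a median of -0.45. Their summed intensity was 210362 and 165639 in the knockout arrays and 349272 and 192742 in the wild-type arrays, so wild-type replicate 1 was 1.81 times wild-type replicate 2. Bright genes weigh most in this sum, with Ms4a1 at 145330 and 56641 and Cd79b at 93167 and 46460 in the wild-type arrays. Cd79a, Cd72, Pax5 and Cr2 were lower in wild-type replicate 1 than in wild-type replicate 2. The 9 tested T cell markers gave 8 lower and 1 higher, a median of -0.46 and sums of 44312 and 36395 against 88991 and 46780. Zap70 contributed 38354 and 12016 to the wild-type sums, while Cd3g was lower in wild-type replicate 1 than in wild-type replicate 2. The median was -0.13 for B cell and -0.15 for T cell markers without wild-type replicate 1, and no marker of either list was below the floor on all arrays. Plasma cell markers had the other direction, with 5 of 5 higher, a median of 0.70 (0.18 without that array) and sums of 76111 and 66564 against 28270 and 64231. Jchain weighs most in that sum, at 21863 and 51990 in the wild-type arrays, while Sdc1 was highest in wild-type replicate 1. Markers of macrophages and dendritic cells summed to 93956 and 96020 against 78240 and 99108, and 1 of their 10 genes was below the floor on all arrays. Vcam1, a bright gene of that list, read 13118 and 30987 in the wild-type arrays, while Marco and Csf1r were highest in wild-type replicate 1. Summed NK cell markers were 5206 and 6324 against 5239 and 7396. Summed neutrophil markers were 513728 and 575068 against 701319 and 174368. Wild-type replicate 1 was the highest array there and wild-type replicate 2 the lowest. S100a8 and S100a9 weigh most in this sum, at 265039 and 177669 in wild-type replicate 1, and with Ngp were highest in that array. Chil3, Elane, Mmp9, Prtn3, Mpo and Camp were lower in wild-type replicate 1 than in both knockout arrays. All 10 tested genes of that list measured higher in knockout spleen, with a median of 1.13 (1.96 without wild-type replicate 1). Exocrine pancreas markers, from tissue beside the spleen, were also highest in wild-type replicate 1, at 2.61 times the mean of the arrays. Of the 9 tested, 2 measured higher and 7 lower, with a median of -1.65 (-0.73 without that array) and sums of 10662 and 11637 against 83473 and 22313. Erythroid markers gave 1 higher and 8 lower, with a median of -0.61 (-1.07 without that array). All 4 tested platelet markers measured higher, with a median of 1.34 (1.97 without that array). Stroma and endothelium markers gave 6 higher and 2 lower, with a median of 0.40 (0.06 without that array).

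Of the 24 tested members, 6 stood in wild-type replicate 1 at 1.5 times the mean of the 4 arrays or more, namely Lta probe set 102630_s_at, Traf2, Ltb, Cd40, Traf1 and Tnfrsf4. This was 25% of members against 11.7% of all tested probe sets, a description of 1 array that carries no test. At the other end, 4 members (16.7%) stood there at 1/1.5 of the mean or less, against 24.5% of all tested probe sets. The 6 high members stood in wild-type replicate 1 at 1.5 to 1.82 times the mean, a range whose lower end was set by their choice. Summed markers stood there at 1.52 for B cells, 1.64 for T cells, 1.43 for neutrophils and 2.61 for exocrine pancreas. They stood at 0.48 for plasma cells, 0.85 for macrophages and dendritic cells and 0.87 for NK cells. The part of these cell types and tissues in the member values was not tested. In whole spleen, fewer cells of a type and less RNA per cell cannot be told apart.

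**Figure D5:**
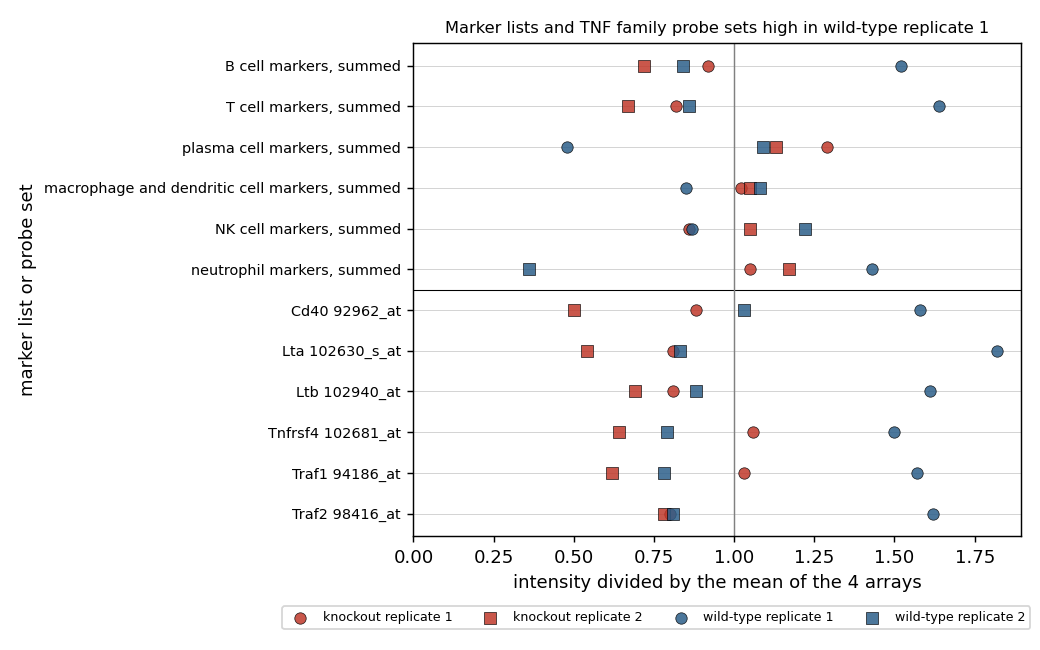
Intensity divided by the mean of the 4 arrays, for 6 summed marker lists (top) and the 6 TNF family probe sets chosen for their level in wild-type replicate 1 (bottom), with knockout arrays in red, wild-type arrays in blue, circles for replicate 1 and squares for replicate 2. Wild-type replicate 1 is the highest array for the summed B cell, T cell and neutrophil lists, at 1.52, 1.64 and 1.43. It is the lowest for the summed plasma cell list, at 0.48, and the summed macrophage and dendritic cell list, at 0.85. Bright genes weigh most in these sums, and not every marker of a list follows its sum.

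Genes that act downstream of the receptors were described by lists, each gene by its brightest probe set, and 0 members of any of these lists passed over all tested probe sets. Of 14 tested genes for death domain and ubiquitin steps, 9 measured higher and 5 lower, with a median of 0.11 (-0.17 without wild-type replicate 1). Mapk8, which encodes the stress kinase JNK1, gave 2886 and 2417 in knockout arrays and 842.8 and 2155 in wild-type arrays (log2 0.97, SE 0.52). Tab2, a ubiquitin-binding adaptor of the kinase TAK1, read 21731 and 25202 against 8022 and 19668 (log2 0.90, SE 0.52). In both genes wild-type replicate 1 was the low array. Rbck1, a subunit of the linear ubiquitin ligase, read 5333 and 6114 against 9745 and 7226 (log2 -0.56, SE 0.40), with both knockout arrays lower, while its other tested probe set differed by 0.17.

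The 8 tested genes of the NF-kappaB module gave 2 higher and 6 lower, with a median of -0.06 (-0.13 without wild-type replicate 1) against 0.04 over all tested probe sets. All 8 had overlapping genotypes, as did most tested probe sets, of which 26.4% had separate groups. Nfkbia, the inhibitor that NF-kappaB itself induces, gave 21471 and 15413 in knockout arrays and 11077 and 21064 in wild-type arrays (log2 0.25, SE 0.48). Nfkbie, another inhibitor of this family, read 604.6 and 668.8 against 1229 and 536.8 (log2 -0.35, SE 0.54). Bcl3, a nuclear cofactor of NF-kappaB, read 5961 and 2023 against 4304 and 4053 (log2 -0.27, SE 0.55).

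TNF-induced genes measured higher in 9 of 10 tested cases, with a median of 0.48 that was 0.04 without wild-type replicate 1, and 6 of the 20 genes in the list were below the floor on all 4 arrays. Ccl2, a monocyte chemokine, gave 708 and 693.4 in knockout arrays and 411.1 and 420.5 in wild-type arrays (log2 0.75, SE 0.48, limma adjusted p = 0.992), with separate and internally close groups. Cxcl10, an interferon-induced chemokine, read 893.3 and 1349 against 739.4 and 761.1 (log2 0.55, SE 0.45). Vcam1, an adhesion molecule of splenic macrophages and stroma, read 28074 and 35956 against 13118 and 30987 (log2 0.66, SE 0.52), and wild-type replicate 1 alone was low; its other 2 probe sets differed by 0.76 and 0.56.

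Of 6 tested stromal and follicle genes that depend on lymphotoxin, 3 measured higher and 3 lower, with a median of -0.15 (-0.38 without wild-type replicate 1). Madcam1, the addressin of the marginal sinus, gave 4966 and 2898 in knockout arrays and 9040 and 5645 in wild-type arrays, with both knockout arrays lower (log2 -0.91, SE 0.46, limma adjusted p = 0.992), while its other tested probe set differed by -0.06 with overlapping genotypes. Mfge8, made by follicular dendritic cells and macrophages, read 60430 and 38042 against 95710 and 60099 (log2 -0.66, SE 0.49), with knockout replicate 1 and wild-type replicate 2 nearly equal. Cxcl13, the B cell chemokine of follicles, picked out with its values known, read 6557 and 7157 against 3544 and 11669 (log2 0.09, SE 0.58), with the knockout arrays between the wild-type arrays. Vcam1 and Icam1 belong to this list and to that of TNF-induced genes.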

How the data were processed

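The authors deposited linear intensities of 12488 probe sets on 4 arrays. How they were computed and scaled is not given in the sources used here. Trimmed means (2% at each end) were 2501.5 to 2502.0, and the intensities were used without further scaling. The 66 control probe sets were left out and values below 185 were raised to that floor. The genotypes were compared in R 4.3.3 with limma 3.58.1 (lmFit, eBayes with an intensity trend, two-sided, Benjamini-Hochberg over 7453 probe sets), without a replicate block. Deviations of same-numbered arrays correlated at 0.04. An exact permutation test of 2 against 2 arrays cannot go below p = 0.333. The number of arrays limits the precision. Symbols came from the platform annotation, updated by gene identifier through the GRCm38.p6 gene table (10817 of 10833 single symbols matched, all 40 members included). Named in full were members with separate groups, a fixed set of well-known members, and up to 3 genes of each pathway list by smallest p. Members and lists were chosen with earlier results of these data known. The fit was tested on simulated data, where 200 of 7453 probe sets were changed. There, 16% of those raised 2-fold and 88% of those raised 4-fold were recovered, against 8% and 72% of those lowered, and 2.29% of calls were false. Of 25 lowered 64-fold, 68% were recovered, and 8 were left out by the filter. The simulated arrays had equal spread, unlike the real arrays. Alternatives covered scaling, floor, filter, variance model, block, array left out, probe sets and threshold.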

Additional observations from a re-analysis of the deposited data

Results flagged for a closer look

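One probe set outside the rule stood higher in both knockout arrays than in both wild-type arrays. The platform annotation assigns it to 2 TNF family genes at once, so it was no member and no gene is named from it. Its knockout intensities were 2534 and 2184 and its wild-type intensities 1646 and 1681, a difference of 0.50 on the log2 scale (SE 0.38, limma adjusted p = 0.992), and 0.48 without wild-type replicate 1. Over all tested probe sets 14.3% were separate in this direction.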

How the results depend on the processing

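No TNF family probe set passed in any of the 17 alternatives run, those that leave out 1 array included. Of the 24 tested members, 9 kept their direction in every alternative that gave them a value and 15 did not. All 19 turned directions came from leaving out 1 array, and then differences ran from -0.08 to 0.65 for Cd27, -0.84 to 0.46 for Cd70, -0.34 to 1.13 for Fas, -0.01 to 0.29 for Lta probe set 100327_at, -0.42 to 0.21 for Ltbr, -0.66 to 0.20 for Tnfrsf17, -0.49 to 0.40 and -0.31 to 0.26 for Tnfrsf1a probe sets 161194_r_at and 92793_at, -0.01 to 0.39 for Tnfrsf1b, -0.87 to 0.05 for Tnfrsf4, -0.97 to 0.04 for Traf1, -0.39 to 0.15 and -0.45 to 0.18 for Traf4 probe sets 100005_at and 162482_at, -0.25 to 0.86 for Traf5 and -0.25 to 0.06 for Traf6 probe set 104189_at. With 1 array left out, the lone sample of its group is assumed to vary like the other group. In these fits the median difference ran from -0.31 (without wild-type replicate 2) to -0.01 for the family, -0.79 to 0.09 for ligands, -0.37 to 0.07 for receptors, -0.19 to 0.15 for TRAF adaptors, -0.17 to 0.43 for death domain and ubiquitin steps, -0.20 to 0.14 for the NF-kappaB module, -0.38 to 0.11 for the lymphotoxin list and 0.04 to 0.64 for TNF-induced genes. Members with separate groups numbered 12 to 22 in these fits, where 53.6% to 82.9% of all tested probe sets were separate. Without wild-type replicate 2, 6 members had an unadjusted p under 0.05, as did 29.2% of all tested probe sets.

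Calls over all probe sets, 4 in the fit reported, were 3 to 13 with 1 array left out, 7 with a pseudocount of 100, 0 without the filter, 2 without cross-hybridising probe sets, 7 at an adjusted p under 0.10 and 36 with the replicate number as a block. That number has no stated pairing in the labels, and 0 members passed with the block. The targeted gene stayed lower, from -5.03 to -4.19 with 1 array left out, with an adjusted p of 0.0978 without wild-type replicate 1, 0.0572 without wild-type replicate 2 and 0.713 without the filter (difference -4.61). The ligand median, from 5 probe sets, was -0.02 with a 40th percentile floor, 0.02 without the filter, -0.78 with a 60th percentile filter, -0.02 without cross-hybridising probe sets and -0.43 with 1 probe set per gene. The TRAF median was -0.17 with quantile normalization, -0.18 with median centring and with loess, and -0.14 with the 60th percentile filter and with 1 probe set per gene. The lymphotoxin list's median was 0.18 without cross-hybridising probe sets, and 3 members had separate groups under quantile normalization, against 26.3% of all tested probe sets. The cause of these changes was not tested.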
